A study of Mus musculus with 20 samples.

Results

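The 42 genes described here encode nuclear subunits of the mitochondrial respiratory chain, with the mobile carrier cytochrome c and both subunits of the electron transfer flavoprotein. They were taken from a fixed list of symbols, and 42 of 42 were matched by symbol among the 21900 protein-coding genes of the RefSeq table used for gene positions (assembly GRCm38.p6, which mm10 names). Of them, 19 belong to complex I, 4 to complex II, 6 to complex III, 6 to complex IV, 4 to complex V (ATP synthase) and 2 to the electron transfer flavoprotein, and the last is Cycs, cytochrome c. Chromatin immunoprecipitation sequencing was carried out on flash-frozen livers of male C57BL/6 mice, aged 9 weeks and fasted for 24 hours, with 2 livers per genotype for H3K27ac and for H3K4me1. The genotypes were wild type (WT), Cpt2 L-/-, a knockout in the liver (called Cpt2 KO below), Ppara -/-, for which the labels name no tissue (Ppara KO), and Cpt2 L-/- ; Ppara -/- (DKO). No Cre line or floxed allele is named for any group, and all groups were fasted, with no fed liver. For H3K9ac there was 1 WT library and 1 from Cpt2 KO.

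Respiratory complexes I and II feed electrons from NADH and succinate to ubiquinone, complex III passes them to cytochrome c, complex IV reduces oxygen, and complex V makes ATP from the proton gradient. The electron transfer flavoprotein takes electrons from the acyl-CoA dehydrogenases of fatty acid oxidation and hands them on to ubiquinone. Cpt2 is the inner-membrane carnitine palmitoyltransferase that long-chain fatty acids need to enter this pathway, and Ppara is a nuclear receptor that induces fatty acid oxidation genes in fasted liver. Nuclear genes of the chain are expressed in nearly all cells, and the factors NRF1, GABPA (an ETS protein), YY1 and ERR are known to bind many of their promoters. H3K27ac and H3K9ac mark active promoters and, for H3K27ac, active enhancers, whereas H3K4me1 marks enhancers and the flanks of promoters.

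Promoter sequences are shown for the genes on which the results turn and for which the RefSeq promoter table (GRCm38.p6) had an entry, as it did for 31 of the 42. Each is the 250 bases before the annotated start, 5′ to 3′ on the strand of the gene. Ndufb3 and Ndufb10 have intervals that passed a test, Cox8a and Etfb had the highest H3K27ac of complex IV and of the electron transfer flavoprotein, and Sdha and Sdhd were added after motif matches were seen, because they hold 3 and 1 NRF1 matches. Capitals mark matches on either strand to NRF1 (GCGCA and GCGC with any 1 base between), ETS of the GABPA type (CCGGAAG), YY1 (AANATGGCG), ERR (TCAAGGTCA) or the PPAR direct repeat (2 copies of AGGTCA with any 1 base between).
Ndufb3 (chr1:58586147-58586396, plus strand): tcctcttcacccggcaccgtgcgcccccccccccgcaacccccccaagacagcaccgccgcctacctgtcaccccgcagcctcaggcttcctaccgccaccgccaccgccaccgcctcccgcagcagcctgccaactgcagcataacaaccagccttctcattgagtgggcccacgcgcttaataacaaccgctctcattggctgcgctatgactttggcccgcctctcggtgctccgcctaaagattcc
Ndufb10 (chr17:24724424-24724673, minus strand): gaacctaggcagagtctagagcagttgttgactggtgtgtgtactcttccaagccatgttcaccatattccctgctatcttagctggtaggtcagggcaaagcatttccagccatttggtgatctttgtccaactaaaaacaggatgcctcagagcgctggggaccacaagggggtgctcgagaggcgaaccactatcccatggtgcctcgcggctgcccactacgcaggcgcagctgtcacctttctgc
Cox8a (chr19:7217617-7217866, minus strand): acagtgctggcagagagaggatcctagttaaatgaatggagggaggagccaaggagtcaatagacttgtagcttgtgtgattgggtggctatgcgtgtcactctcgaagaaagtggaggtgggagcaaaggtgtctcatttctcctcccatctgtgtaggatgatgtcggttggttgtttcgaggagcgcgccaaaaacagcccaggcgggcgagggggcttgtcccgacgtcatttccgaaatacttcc
Etfb (chr7:43443822-43444071, plus strand): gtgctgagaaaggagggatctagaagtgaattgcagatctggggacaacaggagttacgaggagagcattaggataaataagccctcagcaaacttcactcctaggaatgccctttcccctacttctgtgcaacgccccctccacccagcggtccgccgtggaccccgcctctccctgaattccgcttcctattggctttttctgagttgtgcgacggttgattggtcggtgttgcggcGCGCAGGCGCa
Sdha (chr13:74350241-74350490, minus strand): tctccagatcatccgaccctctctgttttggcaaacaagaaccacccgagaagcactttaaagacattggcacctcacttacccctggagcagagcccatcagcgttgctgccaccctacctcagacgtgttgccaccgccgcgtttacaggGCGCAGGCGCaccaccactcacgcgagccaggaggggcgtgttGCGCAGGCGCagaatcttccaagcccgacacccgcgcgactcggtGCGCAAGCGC
Sdhd (chr9:50603850-50604099, minus strand): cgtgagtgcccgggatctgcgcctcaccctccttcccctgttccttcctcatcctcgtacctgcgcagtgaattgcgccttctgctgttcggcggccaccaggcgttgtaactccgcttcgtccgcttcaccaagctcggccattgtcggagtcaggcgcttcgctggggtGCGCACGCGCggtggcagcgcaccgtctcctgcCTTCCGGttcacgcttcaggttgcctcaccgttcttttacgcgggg
The capitals in Etfb and Sdha are NRF1 matches, Sdhd holds 1 NRF1 and 1 ETS match, and Ndufb3, Ndufb10 and Cox8a hold no match to these 5 motifs in this window.

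Over the 31 promoters, an NRF1 match was found in 6 (19.4%): Etfb, Ndufa5, Ndufa8, Ndufs6, Sdha and Sdhd. The share among all 17492 promoters of the table was 5.30%. An ETS match was found in 2 of 31 (6.45%, against 9.13% of all promoters), in Ndufs3 and Sdhd. No match to YY1, ERR or the PPAR direct repeat was found in the 31 promoters, and all promoters held them in 1.32%, 0.314% and 0.0457%. The half-site AGGTCA, which lies within the ERR and PPAR motifs, was present in 4 of 31 (12.9%, against 12.6%). The SP/KLF motif GGGCGG was present in 10 (32.3%, against 42.7%) and CCAAT in 13 (41.9%, against 36.3%), Ndufb3, Cox8a and Etfb among them. These promoters had a median of 15 CpG dinucleotides and 57.6% GC, compared with 10 and 55.2% over all promoters. A match is a description of letters and not a binding site, and no factor was profiled.

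A consensus interval of H3K27ac called in every library lay at 40 of the 42 genes. An interval counted for a gene when it overlapped the gene body or lay within 2000 bases of it, and 40 genes (95.2%) had an interval called in all 8 libraries, compared with 46.4% of the 21900 protein-coding genes. Cycs and Ndufb5, an accessory subunit of complex I, had no listed interval of H3K27ac or H3K9ac in any library. Altogether 87 H3K27ac intervals lay at these genes, 45 of them called in all 8 libraries. Where a gene had several, the one with the highest mean enrichment stands for it below. These strongest intervals had a median width of 1875 bases (824 to 15132), and 22 of the 40 also overlapped another protein-coding gene, so the mark there cannot be assigned to 1 gene alone.

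H3K4me1 was present near almost all of the genes but not at their starts. An H3K4me1 interval was listed in at least 1 library at 41 of the 42, the exception being Cycs (63.2% of protein-coding genes had one). Ndufv3 and Uqcrc1 had a call in 1 library only. An interval called in all 8 libraries was present at 24 (57.1%, against 31.7% of protein-coding genes). None of the 31 annotated starts lay in an H3K4me1 interval, whereas 27 lay in an H3K27ac interval. Over all 17492 genes with an annotated start, 44.2% of starts lay in an H3K27ac interval and 9.83% in an H3K4me1 interval, and of the starts within H3K27ac 13.7% were also within H3K4me1. The summit of the strongest H3K27ac peak lay downstream of the start in 28 of 29 genes (96.6%, against 71.6% of all genes), at a median of 200.5 bases. It lay within 300 bases of the start in 24 (82.8%, against 47.1% of all genes). Etfb was the 1 gene with an upstream summit, at −319.5 bases. The strongest H3K4me1 summit lay at a median of 1701.5 bases downstream, and at none of 30 genes within 300 bases of the start (7.28% of all genes). Over all genes the medians were 187 bases for H3K27ac and 1753 bases for H3K4me1, close to those of the respiratory chain genes, and the middle of the H3K27ac distribution was narrower here (quartiles 156 and 257.5 bases, against −126.5 and 1549 over all genes). These are descriptions with no test.

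**Figure D1:**
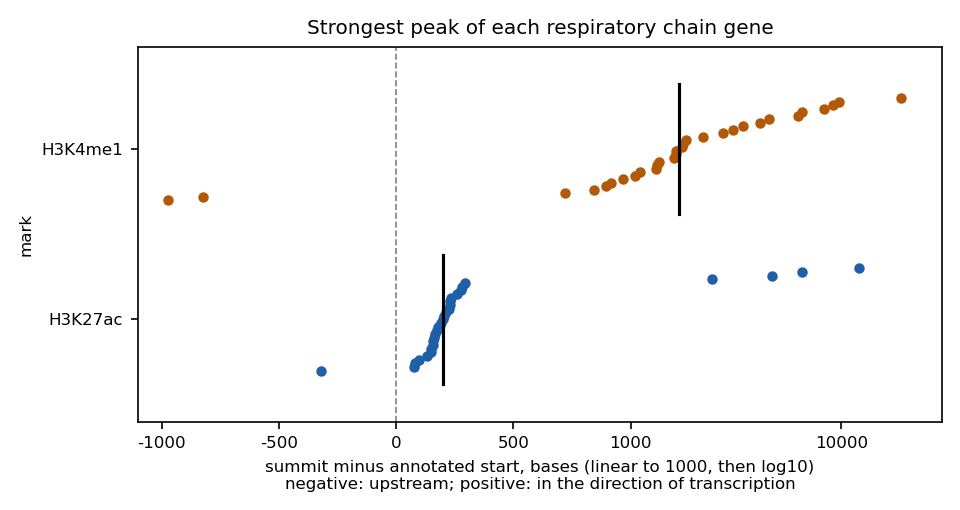
Position of the strongest peak summit relative to the annotated start (bases, in the direction of transcription) for 29 genes with H3K27ac and 30 with H3K4me1, each point the median over the libraries with a peak and each black line the median over genes. H3K27ac summits gather around 200.5 bases after the start, apart from Etfb upstream and 4 genes beyond 1000 bases, and H3K4me1 summits lie farther out with a median of 1701.5 bases.

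By the median over libraries, the 4 genes beyond 1000 bases were Ndufs7, Ndufs8, Ndufb10 and Atp5b, whose strongest intervals did not cover their annotated start. The Ndufs7 interval (mm10 chr10:80257651-80272782) reached over Gamt and Dazap1, that of Ndufs8 (chr19:3903999-3910081) over Tcirg1, that of Ndufb10 (chr17:24719165-24721066) over Rps2 and that of Atp5b (chr10:128090648-128095547) over Baz2a. For Ndufs7 a summit was found in 3 libraries only, both WT livers and Ppara KO 2. Its folds in the other libraries come from peaks elsewhere in this long interval. Values of these 4 genes therefore describe acetylation away from the gene's own annotated start. For Ndufs8, Atp5b and Ndufb10 the median summit matches no library. The Ndufs8 summit lay at 5092 to 5933 bases in WT 2, Cpt2 KO 1 and both Ppara KO livers, and at 7042 to 7214 in the others. The Atp5b summit lay at 127 to 339 bases in Cpt2 KO and DKO and at 8995 to 9127 in WT and Ppara KO. The Ndufb10 summit lay at 129 to 178 bases in both WT livers, Cpt2 KO 2 and Ppara KO 1, and at 4680 to 4737 in the others. These changes of place were not tested.

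H3K9ac was listed at the same 40 genes in the WT and in the Cpt2 KO library, among 39287 and 41122 intervals, and overlapped all 40 strongest H3K27ac intervals. It covered a median of 1757 bases of them in WT and 1719 bases in Cpt2 KO. Coverage was larger in Cpt2 KO at 8 genes, smaller at 20 and equal at 12. Among the smaller ones, chosen after their values were seen, were Ndufs6 (1396 bases in WT and 908 in Cpt2 KO), Uqcrb (1629 and 1182) and Etfa (1967 and 1332). With 1 library per genotype and no enrichment values for this mark, no test was possible. H3K9ac was not counted over all genes, so whether these values are particular to respiratory chain genes is unknown.

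Enrichment of H3K27ac is given as the authors' fold over background at the summit of the highest peak in the interval. For tests, its log2 was centred on the median of the 18281 intervals called in all 8 libraries. The 40 genes had a median centred level of 0.63, compared with 0.31 over the strongest intervals of the 10154 protein-coding genes tested, and 32 of 40 lay above the library median. The genes differed among themselves more than between genotypes, from a mean level of −0.94 at Ndufa9 to 1.84 at Ndufb3. Levels compare enrichment at summits, with no correction for length, and are set side by side here only as positions within a library.

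Complex I held both extremes, and its 18 genes had a median level of 0.55. Ndufb3, an accessory subunit of the membrane arm, had folds of 30.6 and 17.0 (WT), 55.9 and 54.2 (Cpt2 KO), 38.8 and 40 (Ppara KO) and 57.8 and 62.8 (DKO). Ndufa9, an accessory subunit beside the quinone site, had 4.07 and 7.82 (WT), 6.77 and 6.54 (Cpt2 KO), 4.50 and 6.36 (Ppara KO) and 7.2 and 6.27 (DKO). Ndufb3 was higher than Ndufa9 in all 8 libraries. Ndufv1, the flavoprotein that oxidises NADH, lay below the library median on average (mean level −0.14), with folds of 6.82 and 10.9 (WT), 8.38 and 10.4 (Cpt2 KO), 9.18 and 11.2 (Ppara KO) and 16.3 and 14.0 (DKO). Its iron-sulfur partner Ndufv2 had a mean level of 0.60.

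In complex II (median 0.67), Sdhc, a membrane anchor, was the highest with folds of 24.1 and 20.5 (WT), 26.3 and 24.9 (Cpt2 KO), 18.3 and 26.8 (Ppara KO) and 30.4 and 23.1 (DKO). Sdha, the flavoprotein that oxidises succinate and whose promoter above holds 3 NRF1 matches, was the lowest with 10.2 and 12.9, 16.4 and 13.7, 9.85 and 11.4, and 14.4 and 17.5 in the same order. All 4 Cpt2-null values of Sdha, from Cpt2 KO and DKO livers, lay above the 4 Cpt2-intact values, but the difference did not pass the test. Complex III had the highest median of the complexes with 3 or more genes, 0.82. In it Uqcrb, a small subunit, had folds of 17.9 and 20.5 (WT), 29.4 and 28.1 (Cpt2 KO), 20.9 and 26.2 (Ppara KO) and 31.6 and 25.4 (DKO), and Uqcrc1, a core subunit, was the lowest (mean level 0.38). Uqcrc1 had folds of 10.5 and 15.4 (WT), 17.3 and 16.8 (Cpt2 KO), 14.2 and 13.8 (Ppara KO) and 17.0 and 17.6 (DKO), and after centring Cpt2-null and Cpt2-intact livers overlapped.

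In complex IV (median 0.51), Cox8a was the highest and Cox5b the lowest, at mean levels of 0.98 and −0.27. Cox8a had folds of 10.0 and 25.6 (WT), 26.9 and 22.3 (Cpt2 KO), 23.4 and 22.7 (Ppara KO) and 27.8 and 32.4 (DKO). The WT 1 library was the low one, and WT 2 lay among the knockouts. Cox5b had folds of 8.36 and 12.0 (WT), 9.07 and 9.31 (Cpt2 KO), 10.9 and 8.42 (Ppara KO) and 10.0 and 9.62 (DKO). On the centred scale the 4 Cpt2-null values and 1 Ppara KO value lay below both WT livers, and the other Ppara KO value above both. The 4 complex V genes lay close together, from a mean level of 0.53 at Atp5o, the stalk subunit OSCP, to 0.75 at Atp5a1, the alpha subunit. Atp5a1 had folds of 15.1 and 28.6 (WT), 26.7 and 14.8 (Cpt2 KO), 20.0 and 15.7 (Ppara KO) and 14.4 and 26.7 (DKO), so that replicates differed as much as genotypes. Atp5o had 11.6 and 18.8, 17.9 and 19.1, 14.8 and 15.8, and 20.0 and 17.5 in the same order, with WT 1 the lowest. Etfb had folds of 17.8 and 21.4 (WT), 26.7 and 28.8 (Cpt2 KO), 17.6 and 20.6 (Ppara KO) and 25.9 and 25.8 (DKO), and Etfa 12.9 and 14.3, 13.3 and 13.9, 9.75 and 12.8, and 14.5 and 17.8. For Etfb, the 4 Cpt2-null folds again lay above the 4 Cpt2-intact folds, but after centring the groups overlapped and the difference did not pass the test.

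**Figure D2:**
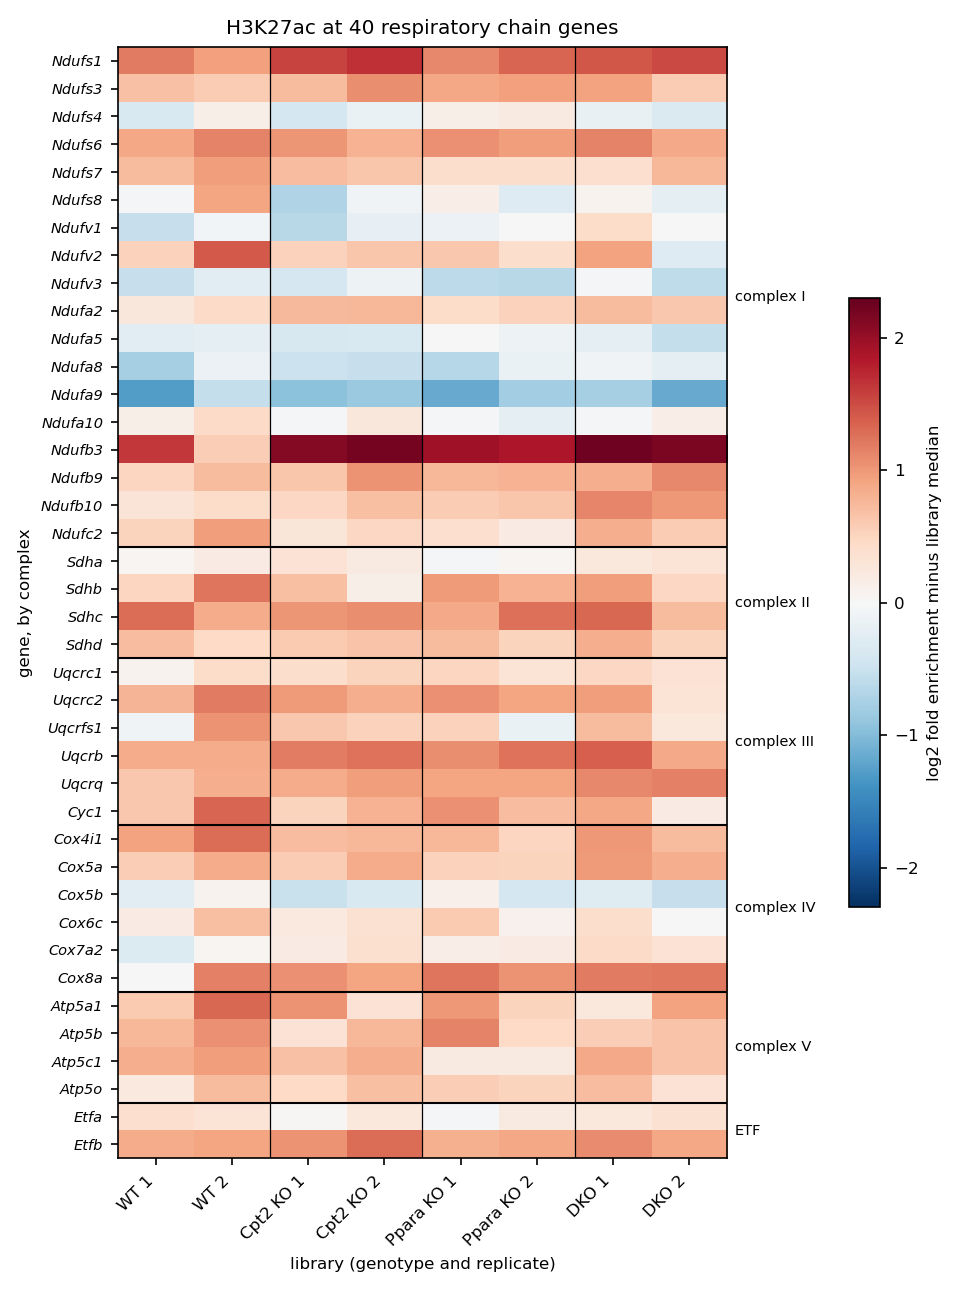
Centred log2 H3K27ac fold enrichment (colour, 0 at the library median) of the strongest interval of 40 genes (rows, by complex, ETF being the electron transfer flavoprotein) in 8 libraries (columns). Rows differ more than columns, from Ndufb3 at a mean of 1.84 to Ndufa9 at −0.94, and WT 1 and WT 2 differ in many rows.

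At these genes the 2 WT livers lay farther apart than the 2 livers of any knockout. WT 2 was higher than WT 1 at 33 of 40 genes (median difference 0.30 log2), WT 2 was the highest of all 8 libraries at 16 genes and WT 1 the lowest at 10. The median absolute gap between replicates was 0.33 for WT, 0.17 for Cpt2 KO, 0.18 for Ppara KO and 0.26 for DKO, compared with 0.31, 0.21, 0.24 and 0.24 over all 18281 intervals. At 3 genes the WT livers were 1 log2 unit or more apart after centring, as Uqcrfs1, the Rieske iron-sulfur protein, shows with folds of 9.31 and 23.3. With 2 livers per genotype, several differences from WT below turn on which WT library is kept.

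H3K27ac at these genes showed no difference between Ppara-null and Ppara-intact livers that passed the test. Ppara-null livers (Ppara KO and DKO) were compared with Ppara-intact livers (WT and Cpt2 KO) by limma over all 18281 intervals, with Benjamini-Hochberg adjustment and a threshold of 0.05. None of the 40 passed (4 had an unadjusted p under 0.05), whereas 5.74% of all protein-coding genes tested by the same rule passed. The median difference was −0.0035 log2 (−0.058 over all genes), with 20 genes above 0 and 20 below, and the median absolute difference was 0.10 (0.19 over all genes). The 95% intervals of single genes reached a median of 0.35 to either side, so differences of that size at a single gene lie within the error. In whole liver, a change in the mark per cell and a change in the mix of cells cannot be told apart.

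The lowest differences for Ppara were −0.37 ± 0.25 (SE) at Ndufv2, −0.34 ± 0.14 at Atp5c1, the gamma subunit of ATP synthase, and −0.26 ± 0.15 at Ndufs7, an iron-sulfur core subunit (limma adjusted p = 0.404, 0.160 and 0.311). Atp5c1 had folds of 17.6 and 22.3 (WT), 20.6 and 21.1 (Cpt2 KO), 11.6 and 12.8 (Ppara KO) and 22.4 and 21.9 (DKO). Both Ppara KO livers lay below the other 6, and the DKO livers did not. Ndufs7 had 16.3 and 22.1 (WT), 21.3 and 18.4 (Cpt2 KO), 13.3 and 14.7 (Ppara KO) and 16 and 23.8 (DKO). The highest differences were 0.43 ± 0.19 at Ndufv1, 0.43 ± 0.17 at Ndufb3 and 0.38 ± 0.20 at Cox8a (adjusted p = 0.201, 0.141 and 0.277). Ndufb3 passed without WT replicate 1 (0.68, adjusted p = 0.00326) and Cox8a without WT replicate 2 (0.66, adjusted p = 0.0171), each leave-out assuming that the lone WT liver varies like the other groups. When the mean of all peaks in the interval was taken in place of the highest, Ndufb3 gave −0.20.

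Between Cpt2-null livers (Cpt2 KO and DKO) and Cpt2-intact livers (WT and Ppara KO), H3K27ac was higher at 2 of the 40 genes, Ndufs1 and Ndufb3, and lower at none (limma, 3 with an unadjusted p under 0.05). By the same rule 10.6% of all protein-coding genes passed, so the share here (2 of 40) was no larger than the background. The median difference was 0.044 (0.0098 over all genes), with 25 genes above 0 and 15 below, and the median absolute difference was 0.20 (0.23 over all genes). The sign of this median rested on single libraries: it was −0.062 without WT replicate 1 and 0.14 without WT replicate 2. Ndufs1, the largest iron-sulfur subunit of the NADH-oxidising arm, had folds of 22.6 and 21.8 (WT), 38.1 and 37.8 (Cpt2 KO), 21.4 and 27.8 (Ppara KO) and 33.0 and 40.2 (DKO). The 4 Cpt2-null values lay above the 4 Cpt2-intact values, a difference of 0.41 ± 0.12 (SE) or 1.33-fold (adjusted p = 0.0379). Its interval (chr1:63175873-63177905) also overlaps Eef1b2, a translation elongation factor gene. Ndufb3 (chr1:58585090-58587385, also overlapping Fam126b) showed the same order of groups, with a difference of 0.68 ± 0.17 or 1.6-fold (adjusted p = 0.0225), and its interval covers the promoter printed above. In WT 2 the highest Ndufb3 peak (fold 17.0) had its summit at −435 bases from the start, and in the other libraries at 63 to 93 bases. The low WT 2 value was thus read at another place in the interval, and the comparisons with WT below use it.

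Both calls lay near the threshold. The Ndufb3 call was lost without Cpt2 KO replicate 1, Cpt2 KO replicate 2, Ppara KO replicate 1, Ppara KO replicate 2 or DKO replicate 1 (adjusted p = 0.0562, 0.0571, 0.0526, 0.0686 and 0.0533), with differences from 0.40 to 0.93 over the 8 leave-outs. The Ndufs1 call was kept only without WT replicate 1 (adjusted p = 0.0257) and was lost in the other 7 leave-outs (0.0569 to 0.121), with differences from 0.33 to 0.47. The smallest peak width of a library moved with the Cpt2 state: it was 206 and 198 bases in WT, 205 and 210 in Ppara KO, 221 and 220 in Cpt2 KO and 217 and 223 in DKO. With this width as a covariate the differences were −0.035 at Ndufs1 and −0.23 at Ndufb3, and no interval of the whole genome passed for Cpt2 (limma, 1426 of 18281 with an unadjusted p under 0.05). Peak width and Cpt2 state cannot be told apart here.

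The third highest difference for Cpt2 was at Ndufb10, an accessory subunit of the membrane arm, 0.34 ± 0.14 (adjusted p = 0.119). Its strongest interval, over Rps2, had folds of 12.1 and 15.3 (WT), 18.2 and 19.2 (Cpt2 KO), 15.1 and 17.3 (Ppara KO) and 26.6 and 28.0 (DKO). The neighbouring interval that covers the start of Ndufb10 (chr17:24721186-24724820) had folds of 13.4 and 18.1, 18 and 19.5, 15.4 and 16, and 20.0 and 16.8 in the same order, and gave −0.021. The lowest differences for Cpt2 were −0.41 ± 0.23 at Ndufs8, −0.33 ± 0.20 at Cyc1, cytochrome c1, and −0.31 ± 0.19 at Cox5b (adjusted p = 0.259, 0.272 and 0.291). Ndufs8 had folds of 9.60 and 21.5 (WT), 8.0 and 11.3 (Cpt2 KO), 11.2 and 9.0 (Ppara KO) and 12.9 and 12.1 (DKO). Cyc1 had 15.3 and 29.0 (WT), 18.4 and 20.7 (Cpt2 KO), 20.8 and 18.2 (Ppara KO) and 22.7 and 16 (DKO). In both genes the WT 2 library was the highest of the 8.

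**Figure D3:**
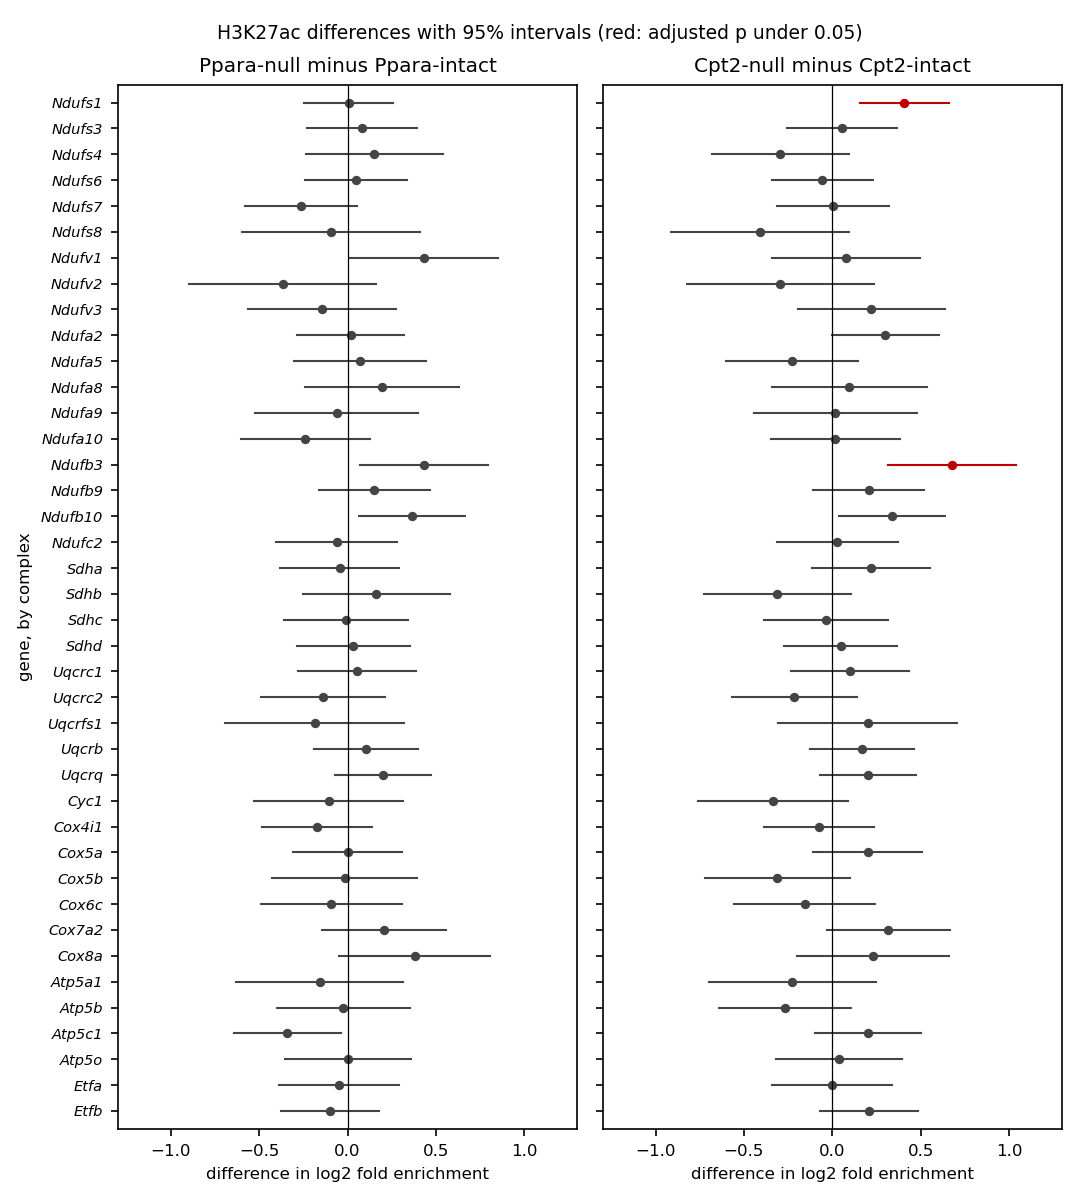
Difference in centred log2 H3K27ac fold enrichment (x axis, point) with its 95% interval (line) for 40 genes, for Ppara-null minus Ppara-intact and Cpt2-null minus Cpt2-intact livers (4 libraries a side). Red marks an adjusted p under 0.05, which Ndufs1 and Ndufb3 reach for Cpt2 and no gene reaches for Ppara.

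Single knockouts were next compared with WT; these comparisons share the 2 WT libraries. In Cpt2 KO, the same 2 genes were called higher and none lower (2 of 40, 3 with an unadjusted p under 0.05; 12.6% of all genes passed). Ndufb3 differed by 1.05 ± 0.24 or 2.07-fold (limma adjusted p = 0.0153) and Ndufs1 by 0.55 ± 0.17 or 1.47-fold (adjusted p = 0.0435). The Ndufb3 call was lost without WT replicate 2 (0.50, adjusted p = 0.0594), Cpt2 KO replicate 1 (0.0819) or Cpt2 KO replicate 2 (0.0646), and Ndufs1 was lost in 6 of 8 leave-outs, kept without WT replicate 1 and Ppara KO replicate 1. The median difference was −0.042 (−0.082 over all genes). Cox7a2, a small subunit of complex IV, had the third highest difference, 0.41 ± 0.23 (adjusted p = 0.252), with folds of 8.0 and 11.8 (WT), 14.7 and 15.3 (Cpt2 KO), 11.1 and 12.6 (Ppara KO) and 16.6 and 17.6 (DKO). The lowest were Ndufs8 (−0.82 ± 0.33), Sdhb, the iron-sulfur subunit of complex II (−0.45 ± 0.27), and Ndufv2 (−0.39 ± 0.35), with adjusted p of 0.112, 0.282 and 0.481. Without WT replicate 1, Ndufs8 passed (−1.32, adjusted p = 0.0298), and without WT replicate 2 Ndufv2 gave 0.035. Sdhb had folds of 14.0 and 26.7 (WT), 21.1 and 12.9 (Cpt2 KO), 19.7 and 19.2 (Ppara KO) and 23.6 and 19.5 (DKO), and the genotypes overlapped.

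In Ppara KO, no gene passed against WT (0 of 40, 3 with an unadjusted p under 0.05 in limma; 6.3% of all genes passed). The median difference was −0.008 (−0.15 over all genes). Ndufb3 was higher by 0.80 ± 0.24 (adjusted p = 0.0592) and Atp5c1 lower by 0.69 ± 0.20 on the log2 scale (difference −0.69, adjusted p = 0.0527), both just short of the threshold. Without WT replicate 1 both passed (1.31, adjusted p = 0.00358, and −0.78, adjusted p = 0.0488). Ndufb3 also passed with quantile normalization (1.03, adjusted p = 0.0279) and without centring (0.79, adjusted p = 0.0415), and Atp5c1 when intervals called in at least 6 libraries were kept (adjusted p = 0.0337). Cox8a differed by 0.54 ± 0.28 (adjusted p = 0.251), by 1.10 without WT replicate 2 (adjusted p = 0.0454) and by −0.055 without WT replicate 1. Ndufs3, a core subunit of complex I, differed by 0.30 ± 0.20, Ndufs8 by −0.51 ± 0.33 and Cox4i1, a complex IV subunit, by −0.47 ± 0.21 (adjusted p = 0.377, 0.360 and 0.171). Ndufs3 had folds of 15.7 and 17.0 (WT), 21.5 and 24.9 (Cpt2 KO), 18.7 and 21.4 (Ppara KO) and 23.3 and 20.9 (DKO), and after centring both Ppara KO livers stayed above both WT livers while DKO overlapped WT. Cox4i1 had 18.8 and 27.8, 21.2 and 20.0, 17.1 and 15.7, and 24.4 and 23.1 in the same order, and after centring both Ppara KO livers lay below WT and overlapped the Cpt2 KO livers.

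In DKO, 2 of 40 genes were called higher than in WT, Ndufb3 and Ndufb10, and none lower (6 with an unadjusted p under 0.05 in limma; 17.8% of all genes passed). Ndufb3 differed by 1.11 ± 0.24 or 2.16-fold (adjusted p = 0.00776), a call kept in all 8 leave-outs (0.56 to 1.62, adjusted p = 0.000739 to 0.0388). It was lost when the mean of the overlapping peaks was used (0.23, adjusted p = 0.615) and with the peak-width covariate (0.050, adjusted p = 0.987). Ndufb10 differed by 0.70 ± 0.20 or 1.63-fold at the interval over Rps2 (adjusted p = 0.0242), and by −0.063 at the interval that covers its start. That call was lost without WT replicate 1 (adjusted p = 0.0646), WT replicate 2 (0.0522), DKO replicate 1 (0.126) or DKO replicate 2 (0.0819), with the mean of overlapping peaks (0.0591) and with the peak-width covariate (0.563). Cox8a differed by 0.61 ± 0.28 (adjusted p = 0.141) and passed without WT replicate 2 (1.17, adjusted p = 0.0123). The lowest differences were at Ndufv2 (−0.66 ± 0.35), Ndufs8 (−0.50 ± 0.33) and Cyc1 (−0.44 ± 0.28), with adjusted p of 0.193, 0.303 and 0.279. Ndufv2 had folds of 14.3 and 30.4 (WT), 18.7 and 18.5 (Cpt2 KO), 15.3 and 14.7 (Ppara KO) and 23.0 and 11.4 (DKO), and passed without DKO replicate 1 (−1.26, adjusted p = 0.0331). The median difference over the 40 genes was 0.0032 (−0.056 over all genes).

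**Figure D4:**
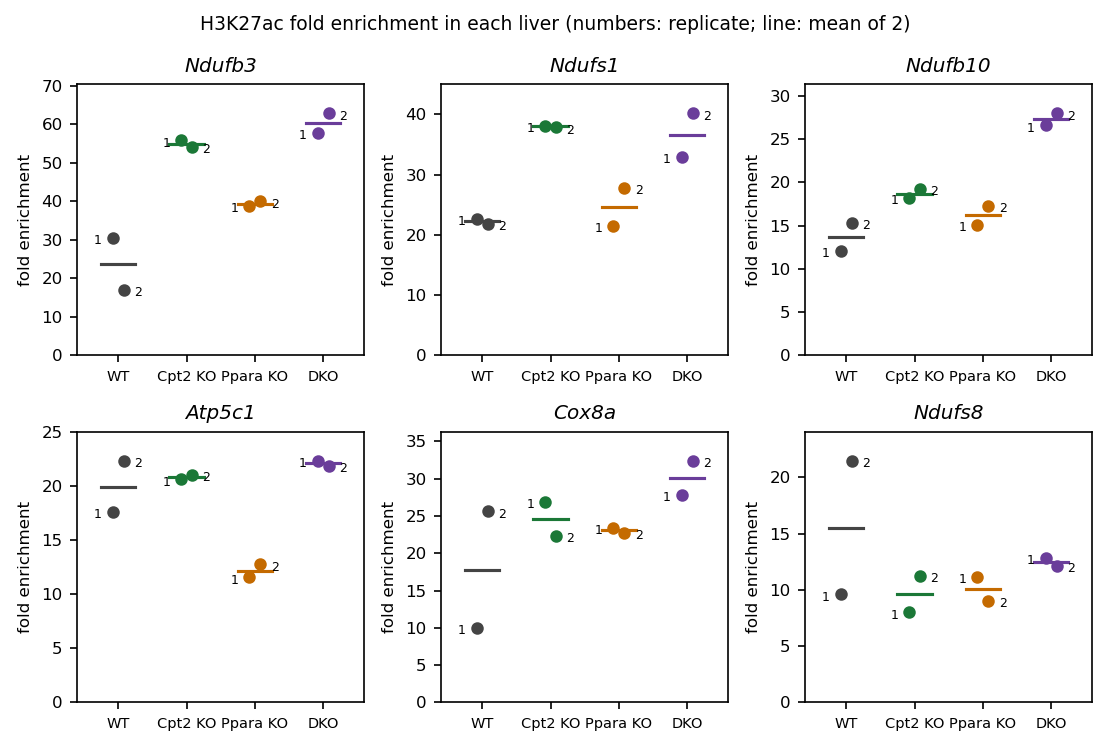
H3K27ac fold enrichment over background (y axis from 0) in each liver (points, numbered by replicate) with the mean of 2 (line), by genotype, for 6 genes. Ndufb3 and Ndufs1 are higher in both Cpt2-null genotypes. Ndufb10, shown at its interval over Rps2 and not at its start, is highest in DKO. Atp5c1 is lowest in Ppara KO, and in Cox8a and Ndufs8 the 2 WT livers lie far apart.

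The interaction asks whether the Cpt2 effect differed between Ppara-null and Ppara-intact livers. No gene passed (0 of 40, 3 with an unadjusted p under 0.05 in limma), and 0.0% of all genes did. The 3 were Ndufb3 (−0.75 ± 0.34, adjusted p = 0.319), Ndufc2, an accessory subunit of complex I (0.79 ± 0.32, adjusted p = 0.270), and Atp5c1 (0.70 ± 0.28, adjusted p = 0.262). For Ndufb3 the folds in Ppara KO livers (38.8 and 40) lay between those of WT and of the Cpt2-null livers. For Ndufc2 the folds were 14.2 and 22.3 (WT), 15.9 and 16.4 (Cpt2 KO), 13.2 and 12.6 (Ppara KO) and 21.7 and 21.0 (DKO). Ndufs8 had the highest interaction, 0.83 ± 0.47, and Ndufs3 and Uqcrb followed Ndufb3 at the low end with −0.44 ± 0.29 and −0.40 ± 0.27 (adjusted p = 0.424, 0.492 and 0.515). The median interaction was 0.060 (0.18 over all genes).

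Over the whole series, 18281 of the 65776 H3K27ac intervals were called in all 8 libraries. Of the 87 H3K27ac intervals at these genes, 42 were not called in all 8 libraries, 30 of them in 1 or 2 libraries. Called in both WT livers and in no other were 6, at Ndufs7, Cyc1, Atp5b and Etfb (3.29% of all 65776 intervals of the series had this pattern). Called in both Cpt2 KO livers alone were 3, at Ndufs4, Cox5a and Etfb (1.83% of all), in both DKO livers alone 1, at Ndufv1 (2.26%), and in both Ppara KO livers alone 0 (0.441%). No interval was called in exactly the 4 Ppara-null, Ppara-intact, Cpt2-null or Cpt2-intact livers (0.632%, 0.725%, 1.95% and 0.826% of all). Libraries held from 53 to 66 of the 87, with means of 55.25 in Ppara-null and 59.5 in Ppara-intact livers (two-sided exact permutation test over 8 libraries, p = 0.143, or 0.571 after adjustment for the 4 such tests) and 56.25 in Cpt2-null and 58.5 in Cpt2-intact livers (exact p = 0.657, adjusted p = 0.876). The smallest p this design allows is 0.0286.

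Ndufs4, an accessory subunit whose loss in mice impairs complex I, had several such partly called intervals, and it was singled out after its values were seen. Its promoter interval (chr13:114387319-114388297) had H3K27ac folds of 7.80 and 12.5 (WT), 9.83 and 10.7 (Cpt2 KO), 11 and 12.8 (Ppara KO) and 10.9 and 11.1 (DKO), with overlap of all genotypes. Inside the gene body, an H3K4me1 interval (chr13:114376421-114377108) was called in the 4 Ppara-intact livers and in no Ppara-null liver, with folds of 6.82 and 6.00 in WT and 7.84 and 7.73 in Cpt2 KO. It was the 1 interval of 142 with this pattern, which 0.604% of all 103014 H3K4me1 intervals of the series had. H3K27ac at the same place (chr13:114376604-114377038) was called only in the 2 Cpt2 KO livers, with folds of 6.88 and 7.46. Farther into the gene, an H3K4me1 interval (chr13:114360237-114361536) was called in the 6 knockout livers and in neither WT liver, with folds of 7.14 and 3.63 (Cpt2 KO), 6.29 and 7.25 (Ppara KO) and 7.63 and 8.0 (DKO). H3K27ac there (chr13:114360359-114361330) was called in 5 of those 6, at 5.5 in Cpt2 KO replicate 1, 6.00 and 8.67 in the Ppara KO livers and 8.56 and 7.13 in the DKO livers. An uncalled library has no value in the lists, so these differences in calls were not tested. How many intervals of the series were called in the 6 knockout livers alone, or in 5 of them alone, was not counted. Whether those patterns are common is therefore unknown.

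H3K4me1 showed no difference that passed at the 24 genes with an interval in all 8 libraries. For Ppara, 0 of 24 passed in limma (1 with an unadjusted p under 0.05; 0.201% of all genes passed), for Cpt2 0 of 24 (1 unadjusted; 0.0% of all genes) and for DKO against WT 0 of 24 (1 unadjusted; 0.129% of all genes). The median differences were −0.066 for Ppara (−0.041 over all genes), −0.13 for Cpt2 (−0.030) and −0.19 for DKO against WT (−0.073). The 1 gene in each was Cox7a2, whose H3K4me1 interval (chr9:79772634-79773824) lies beyond the higher-coordinate end of the annotated gene and overlaps Tmem30a, with folds of 3.83 and 4.80 (WT), 9.25 and 5.0 (Cpt2 KO), 6.00 and 8.30 (Ppara KO) and 10.3 and 8.34 (DKO). The smallest peak width of the H3K4me1 libraries was 199 and 199 bases (WT), 211 and 196 (Cpt2 KO), 200 and 216 (Ppara KO) and 210 and 221 (DKO). Libraries at 210 bases or more had the higher Cox7a2 folds, so peak width and DKO against WT cannot be told apart here. All 6 knockout values lay above WT, and DKO differed by 1.11 ± 0.32 (adjusted p = 0.101). That difference passed without Cpt2 KO replicate 1 (adjusted p = 0.0305) or Cpt2 KO replicate 2 (0.0326), and the Ppara difference at Cox7a2 without Cpt2 KO replicate 1 (0.80, adjusted p = 0.0434). The Cpt2 difference at Cox8a passed without Cpt2 KO replicate 2 (−1.15, adjusted p = 0.0496). Of 142 H3K4me1 intervals at these genes, libraries held from 67 to 85 (exact permutation tests, two-sided, p = 0.6 for Ppara and p = 1.0 for Cpt2).

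Further genes of the chain were read from lists of other subunits, assembly factors and regulators. Of 44 other subunits, 37 had a strongest H3K27ac interval in all 8 libraries, and none passed for Ppara (limma, 3 with an unadjusted p under 0.05; median −0.045). For Cpt2, Ndufb11 was higher and Cox8b lower (2 of 37, where 10.6% of all genes passed; median over the list 0.074). Ndufb11, a complex I subunit, had folds of 13.0 and 15.0 (WT), 27.8 and 20.8 (Cpt2 KO), 13.6 and 15.8 (Ppara KO) and 23.4 and 28.4 (DKO) (0.53 ± 0.14, adjusted p = 0.0258). Cox8b, the Cox8 isoform known from heart and muscle, had 25 and 33.0, 13.1 and 10.7, 14.3 and 25, and 9.67 and 14.0 in the same order (−1.26 ± 0.18, adjusted p = 0.00396), and its 4 Cpt2-null values were the lowest of the 8. Against WT, Ndufa7, a complex I subunit, was called higher in Cpt2 KO and DKO and Ndufb11 in DKO. Cox8b was called lower in Cpt2 KO and DKO (−1.50 and −1.60) and Atp5j, a stalk subunit of ATP synthase, in all 3 knockouts. Of the 37, 1 was thus higher and 2 lower in Cpt2 KO, where 12.6% of all genes passed. In Ppara KO 0 were higher and 1 lower (6.3% of all genes), and in DKO 2 were higher and 2 lower (17.8%). Ndufa7 had folds of 9.62 and 10.6 (WT), 20.3 and 17.1 (Cpt2 KO), 13.6 and 14.4 (Ppara KO) and 18.7 and 22.5 (DKO). With the peak-width covariate no interval of the genome passed for Cpt2 KO or DKO against WT (limma, 1418 and 1747 of 18281 with an unadjusted p under 0.05), so those calls were lost, in all lists. The Atp5j interval (chr16:84833566-84837630) is also that of Gabpa, and its folds were 23.3 and 39.0 (WT), 18.3 and 16.9 (Cpt2 KO), 13.7 and 13.9 (Ppara KO) and 17.7 and 22.4 (DKO), with every knockout below both WT livers. Its differences from WT were −1.0, −1.12 and −0.90 for Cpt2 KO, Ppara KO and DKO (limma adjusted p = 0.0121, 0.0137 and 0.0118).

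Among 46 assembly factors, 39 had such an interval. For Ppara, 1 was lower and none higher, Tmem126b, a factor of the complex I membrane arm (−0.59 ± 0.17, limma adjusted p = 0.0474; 1 of 39, where 5.74% of all genes passed). For Cpt2, 3 of 39 were lower and none higher (10.6% of all genes passed): Tmem126b (−0.62), Timmdc1, which acts with it (−0.85), and Coa6, a complex IV factor (−0.53), with adjusted p of 0.0304, 0.0205 and 0.0336. Timmdc1 had folds of 14.2 and 24.2 (WT), 7.85 and 9.58 (Cpt2 KO), 14.5 and 15.0 (Ppara KO) and 17.0 and 11.6 (DKO), and Coa6 had 22.9 and 21.3, 15.7 and 16.3, 15.1 and 15.5, and 14.1 and 15.0 in the same order. Tmem126b had folds of 16.3 and 19.6 (WT), 11.3 and 9.25 (Cpt2 KO), 8.06 and 9.75 (Ppara KO) and 9.60 and 9.37 (DKO), so both WT livers lay above all 6 knockouts. The medians over the list were −0.038 for Ppara and −0.025 for Cpt2. In Cpt2 KO against WT, 1 of 39 was called higher, Ndufaf1, and 4 lower, Ndufaf6, Timmdc1, Tmem126b and Coa6 (12.6% of all genes passed). In Ppara KO 1 was called lower, Tmem126b (6.3%), and in DKO 2, Tmem126b and Coa6 (17.8%), with none higher in either. Of 15 regulators, 14 had an interval. Esrrg, an oestrogen-related receptor gene, was lower for Ppara (−0.82 ± 0.19, adjusted p = 0.0197), with folds of 10.2 and 10.5 (WT), 23.0 and 18.4 (Cpt2 KO), 9.0 and 10.2 (Ppara KO) and 8.80 and 6.35 (DKO). Its WT and Ppara KO livers lay close together (−0.10 for Ppara KO against WT, adjusted p = 0.847), and the Cpt2 KO livers were the high ones. Creb1 was higher for Cpt2 (0.77 ± 0.16, adjusted p = 0.0116), with 9.90 and 14.0 (WT), 20.7 and 19.8 (Cpt2 KO), 9.0 and 8.38 (Ppara KO) and 18.4 and 24.8 (DKO). Against WT, 2 of 14 regulators were called lower and none higher in each knockout: Gabpa and Ppargc1b in Cpt2 KO, Gabpa and Tfb2m in Ppara KO, and Gabpa and Tfam in DKO. Over all genes 12.6%, 6.3% and 17.8% passed in these comparisons. The regulators' median difference was −0.19 for Ppara and −0.010 for Cpt2.

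Genes of mitochondrial fatty acid oxidation are set beside these as the pathway that feeds the electron transfer flavoprotein. Of 15 such genes, all with an interval, 5 were lower and 1 higher for Ppara and 0 passed for Cpt2 (limma, 0 with an unadjusted p under 0.05 for Cpt2), where 5.74% and 10.6% of all genes passed. The lower ones were Acadvl, Acads, Eci1, Eci2 and Decr1, with differences from −0.96 to −1.36, and the higher one was Acadm (0.81). Their median was −0.23 for Ppara, compared with −0.0035 at the 40 respiratory chain genes and −0.058 over all genes, and 0.0069 for Cpt2. The difference between the lists was not tested. Etfa and Etfb, which accept the electrons of these dehydrogenases, gave −0.050 and −0.10 for Ppara, and neither passed.

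Peak lists held 44454 to 48929 H3K27ac and 61189 to 72151 H3K4me1 peaks per library, and the depth in reads is unknown. At the targeted genes, H3K27ac calls followed the labels: 1 interval at Cpt2 was called in the 4 Cpt2-intact livers and in no other, and at Ppara 1 was called only in the Ppara-intact and 1 only in the Ppara-null livers. Hepatocyte markers had intervals in all 8 libraries at 7 of 7 genes, with median folds from 15.0 to 22.6, and the medians of Cpt2-null and Cpt2-intact livers overlapped. Among them Serpina1a, which has near-identical copies, was called lower for Ppara, for Cpt2 and in Cpt2 KO and DKO against WT. Of 5 Kupffer cell or macrophage markers, 3 had an interval in all 8 libraries and Marco had none in any. Their median fold, not centred, was 7.93 and 7.16 (WT), 11.1 and 10.5 (Cpt2 KO), 8.14 and 8.63 (Ppara KO) and 16.2 and 18.6 (DKO). These folds were higher in the Cpt2-null livers, as were those of Ndufb3 and Ndufs1. The median fold over all 18281 intervals, not centred, was also higher there, at 13 and 11.8 (Cpt2 KO) and 12.2 and 14.0 (DKO). It was 9.9 and 11.4 in WT and 10.0 and 11.1 in Ppara KO. After centring, the 3 markers lay above 0 for Cpt2 (median 0.44) and in Cpt2 KO against WT (median 0.30), and none passed in either. Clec4f was called higher in DKO than in WT. Endothelial markers (4 of 4) had median folds from 11 to 19.2, lowest in WT 2 and highest in Cpt2 KO 1. Pecam1 was called higher for Cpt2 and in Cpt2 KO and DKO against WT, and Lyve1 lower in DKO. In each of these 3 contrasts 2 of the 4 endothelial markers lay above 0 and 2 below, with lowest differences of −0.51, −0.27 and −0.95. Stellate markers had intervals in some libraries only (0 of 4 in all 8), cholangiocyte markers had none (0 of 3), and of 3 lymphocyte markers Ptprc alone had any. The part of other cell types in the differences at respiratory chain genes was not tested.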

How the data were processed

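H3K27ac and H3K4me1 were profiled in 8 livers each and H3K9ac in 2. Reads were aligned with BWA to mm10 and peaks called with MACS2 2.1.0, per the submitters' processing notes. The settings are not given in the sources used here, and the pooled input libraries were not analysed on their own. For each library the authors deposited peaks with a fold enrichment (a linear ratio over background at the summit) and −log10 p and q values. They also deposited consensus interval lists per mark, whose start and end positions are another kind of value and were used as given. The deposited files hold no read counts, so the depth is unknown and only called peaks have values.

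The highest fold of the peaks overlapping an interval was taken per library as log2 and centred on the median of the intervals called in all 8 libraries (18281 for H3K27ac and 19526 for H3K4me1). Differences were fitted to all of these with limma 3.58.1 in R 4.3.3 (genotype means, variance trend, two-sided, Benjamini-Hochberg), and an adjusted p under 0.05 passed. The script was tested on simulated data. The labels number the replicates but give no pairing or batch, so p-values measure the spread between these samples. Replicate numbers did not pair livers: correlations of replicate differences between genotypes ran from −0.065 to 0.17 for H3K27ac and from −0.49 to 0.10 for H3K4me1.

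Among the listed genes, values in every library are given for those that passed, the 3 highest and 3 lowest per contrast and the extremes of each complex. The genes and lists were chosen with earlier results of these data known. Alternatives tried were other centring, filters, windows, peak summaries, models and leaving out each library. Peak names of H3K27ac Ppara KO replicate 2 carry a different build word from the others, and 83.9% of its peaks overlapped those of replicate 1 (80.9% to 83.0% in the other genotypes). Numbers in peak names that look like animal numbers separate Ppara-null from Ppara-intact livers, and any batch behind them cannot be told apart from genotype.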

Additional observations from a re-analysis of the deposited data

How the results depend on the processing

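Without centring, which moves the median over all H3K27ac intervals by 0.25 for Cpt2 (3504 higher and 432 lower calls, against 896 and 1349), 5 genes passed for Cpt2 (median 0.31), 6 for DKO (median 0.30) and 1 for Ppara KO, each knockout against WT, and the Cpt2 KO median was 0.18. With smallest peak width as a covariate, 0 passed for Cpt2, Cpt2 KO or DKO against WT, with medians of 0.52, 0.52 and 0.62, an interaction median of −0.10, a Ppara KO median of 0.21 and an H3K4me1 DKO median of 0.041. Signs then turned for Cpt2 at Ndufs1 (−0.035), Ndufb3 (−0.23), Ndufs8 (1.10), Cyc1 (1.14) and Cox5b (0.52). They also turned in Cpt2 KO at Ndufb3 (−0.037), Ndufs8 (0.98), Sdhb (0.87) and Ndufv2 (1.88), in Ppara KO at Ndufs8 (0.030), and in DKO at Ndufv2 (1.55), Ndufs8 (1.25) and Cyc1 (1.27). With the mean of overlapping peaks, 0 genes passed for Cpt2, 1 for Cpt2 KO and 0 for DKO, and Ndufb3 for Ppara (−0.20) and Ndufs3 for Ppara KO (−0.35) turned sign. Without the variance trend 0 passed for Cpt2 and 1 for Cpt2 KO. With the interval at the annotated start, added after seeing the data, 1 gene passed for each of Cpt2, Cpt2 KO and DKO, and with gene bodies alone 1 passed for DKO. Under both, Ndufb10 gave −0.021 for Cpt2 and −0.063 for DKO. For Ppara KO against WT, 1 gene passed with quantile normalization and 1 with intervals called in at least 6 libraries. With the replicate block, 1 gene passed there, Ndufb3 (0.80, limma adjusted p = 0.0494), and no other call changed.

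Leaving out each library, a lone liver being assumed to vary like the other groups, the genes passing ranged over 0 to 1 for Ppara, 0 to 2 for Cpt2, 0 to 3 for Cpt2 KO, 0 to 2 for Ppara KO and 1 to 2 for DKO, and for H3K4me1 over 0 to 1 for Ppara, Cpt2 and DKO. Medians ranged over −0.063 to 0.062 (Ppara), −0.062 to 0.14 (Cpt2), −0.10 to 0.27 (interaction), −0.22 to 0.11 (Cpt2 KO), −0.22 to 0.16 (Ppara KO), −0.12 to 0.19 (DKO) and −0.26 to −0.031 (H3K4me1, Cpt2). Ndufv2 in Cpt2 KO ranged from −0.85 to 0.035 and Cox8a in Ppara KO from −0.055 to 1.10. The Cpt2 difference in called intervals per library ranged from −4.08 to 0.25 for H3K27ac and from −2.42 to 2.92 for H3K4me1, where a minimum −log10 q of 10 gave 4.0, a window of 5000 bases 1.0 and gene bodies alone −5.25. The Ppara difference for H3K4me1 was −9.75 with gene bodies alone and 0.0 with 5000 bases. The causes of these shifts were not tested. Depth is unknown, and libraries without a call have no value, so losses of weak peaks were not measured.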
